A study of Mus musculus with 18 samples.

Results

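The interleukin 1 (IL-1) family genes Il1a, Il1b, Il1rn, Il1r1, Il1r2, Il1rl1, Il1rap, Il18, Il18r1 and Il33 were followed in leukocytes that stayed in an inflamed joint or inflamed skin and in leukocytes that had left it for the draining lymph node. The 10 genes were chosen by name, as ligands, receptors and the antagonist of the family, and are 10 of the 49585 genes in the count table. The ligands Il1a, Il1b and Il18, the antagonist Il1rn and the accessory chain Il1rap were lower in migrated than in nonmigrated leukocytes at both sites, the decoy receptor Il1r2 was lower in the skin, and the receptor Il18r1 was higher in migrated leukocytes of the joint. Il1r1 and Il1rl1 were not called in that comparison at either site. Against the steady-state lymph node libraries, Il1r1 and Il1rl1 were higher in migrated leukocytes of both sites, Il18r1 in those of the joint, and Il1b, Il1rn and Il1r2 in those of the skin.

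All samples came from Kaede mice, whose leukocytes carry a fluorescent protein that violet light converts from green to red, so that red cells in a lymph node mark arrivals from the illuminated tissue. According to the protocol, the mice received OT-II T helper 1 cells, T cells specific for ovalbumin, were immunized with ovalbumin in complete Freund's adjuvant and were challenged 10 days later in the footpad or ear with 100 µg of heat-aggregated ovalbumin or with PBS. The protocol names the sorted cells as CD45+ and Kaede red, from pooled mice, and the libraries form 6 groups of 3: joint nonmigrated (footpad), joint migrated (popliteal lymph node), joint steady state (popliteal lymph node), skin nonmigrated (ear), skin migrated (auricular lymph node) and skin steady state (auricular lymph node). The protocol text is the same for all 18 samples, the joint steady-state libraries carry the letters PBS and KG in their names and the skin steady-state libraries the word naive, whereas the inflamed skin libraries carry KR. The labels describe both steady-state groups as leukocytes migrated to the lymph node but explain neither KG nor KR. The names of the naive libraries hold neither. Whether the steady-state cells of either site were sorted as red cells is therefore not settled. The labels also do not say whether the naive mice had received T cells and adjuvant. The nonmigrated cells are what remained red in the tissue a day after illumination, and they include whatever CD45+ cells the digest released. Because each replicate is a pool, p-values measure the spread between pools.

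IL-1α and IL-1β, encoded by Il1a and Il1b, bind the receptor encoded by Il1r1, which recruits the accessory chain encoded by Il1rap and signals through MyD88 and IRAK kinases to NF-κB. The pathway is restrained by the receptor antagonist encoded by Il1rn, which occupies the receptor without recruiting the accessory chain, and by the decoy receptor encoded by Il1r2, which binds ligand without signalling. IL-18 uses a receptor chain encoded by Il18r1 and is known for driving interferon γ in T and NK cells, and IL-33 uses ST2, encoded by Il1rl1, which regulatory T cells, mast cells and type 2 lymphocytes carry. IL-1 is a therapeutic target in arthritis and in autoinflammatory disease.

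In mm10 the ligand and antagonist genes Il1a (chr2:129299610-129309972, minus strand), Il1b (chr2:129364570-129371139, minus strand) and Il1rn (chr2:24336853-24351494, plus strand) lie on chromosome 2, with 54.6 kb between Il1a and Il1b. The receptor genes Il1r2 (chr1:40074079-40125231), Il1r1 (chr1:40225080-40317257), Il1rl1 (chr1:40429570-40465415) and Il18r1 (chr1:40465552-40500854) lie on the plus strand within 427 kb of chromosome 1, and only 137 bases separate the end of Il1rl1 from the start of Il18r1. Il1rap (chr16:26581704-26730117), Il18 (chr9:50554827-50581840) and Il33 (chr19:29925114-29960718) lie alone, all on the plus strand. Antisense genes overlap exons of Il1a by 222 bases, of Il1b by 25 bases and of Il1rap by 552 bases, and these partners held 780, 1043 and 23 counts over all libraries against 28948, 360344 and 14373 for the members.

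The bases just before the start sites of Il1a, Il1b and Il1rn are printed because these ligand and antagonist genes changed together below, yet not in proportion. The sequences are RefSeq promoters on GRCm38.p6, 5′ to 3′ on the gene's strand, from chr2:129309973-129310222 (minus) for Il1a, chr2:129371140-129371389 (minus) for Il1b and chr2:24336610-24336852 (plus) for Il1rn. Capitals mark matches, on either strand, to 5 motifs that were searched.
Il1a: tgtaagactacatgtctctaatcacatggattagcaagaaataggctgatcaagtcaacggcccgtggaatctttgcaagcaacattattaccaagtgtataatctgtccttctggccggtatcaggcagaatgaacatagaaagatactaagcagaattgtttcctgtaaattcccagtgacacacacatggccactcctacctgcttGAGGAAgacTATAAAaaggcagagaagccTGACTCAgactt
Il1b: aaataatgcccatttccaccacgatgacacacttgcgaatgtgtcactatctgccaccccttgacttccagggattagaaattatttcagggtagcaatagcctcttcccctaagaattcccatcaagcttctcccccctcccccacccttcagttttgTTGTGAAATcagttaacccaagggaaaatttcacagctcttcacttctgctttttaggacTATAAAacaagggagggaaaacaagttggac
Il1rn: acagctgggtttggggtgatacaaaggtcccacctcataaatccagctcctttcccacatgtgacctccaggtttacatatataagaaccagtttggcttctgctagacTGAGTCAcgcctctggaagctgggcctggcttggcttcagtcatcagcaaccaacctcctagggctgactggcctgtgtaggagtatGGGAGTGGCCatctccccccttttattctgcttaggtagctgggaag
Il1a held a PU.1 core, a TATA box and an AP-1 site, Il1b held a C/EBP match and a TATA box, and Il1rn held an AP-1 site and a κB match. For Il1rn this is the most upstream of its start-site windows, and the others differ. The window that starts at chr2:24345041 held none of the 5 motifs. The window that starts at chr2:24345121 held a κB and a C/EBP match but no AP-1 site. The PU.1 core was searched as GAGGAA and lay in 23.3% of all 32851 promoter windows of the table. The TATA box was searched as TATAAA and lay in 12.4% of them. The AP-1 site, searched as TGANTCA, lay in 6.75%, and the C/EBP motif, searched as TTNNGNAAT, in 10.2%. The κB motif, with GGG and CC kept apart by 5 free bases, lay in 45.8%. These matches describe letters in a window and were not tied to the levels.

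The table held 19239531 to 43814403 counts per library, with group medians of 20042464 in skin nonmigrated and 21081518 in skin migrated against 37541041 to 43769361 in the other groups. Reads in no gene made up 0.0925 to 0.135% of the total in the inflamed skin libraries and 0.227 to 0.562% in the others. The names of the inflamed skin libraries alone carry an S number, which the labels do not explain. Between inflamed joint and inflamed skin libraries, site and these differences therefore cannot be told apart. The same holds for inflammation and these differences between skin migrated and skin steady-state libraries. Levels are given in CPM, the counts of a gene per 1000000 counts of its library after TMM scaling, 3 counts being worth 0.0616 to 0.18 CPM. Replicates correlated at r = 0.972 to 0.998 across genes, and the third skin nonmigrated library was the least like its group. Ptprc, which encodes CD45, lay at 1155 to 2530 CPM in all libraries. In bulk RNA, fewer cells of a type and less RNA per cell cannot be told apart. Summed markers of neutrophils (7 genes) ran from 5141 to 15985 CPM in joint nonmigrated and 1583 to 2600 CPM in skin nonmigrated libraries but only 34.5 to 89.8 CPM in joint migrated and 13.4 to 26.0 CPM in skin migrated libraries. Those of monocytes and macrophages (7 genes) ran from 17513 to 20948 and 3768 to 10461 CPM in the nonmigrated groups against 125 to 309 and 261 to 485 CPM in the migrated groups. All 14 of these markers were lower in migrated cells at both sites. T cell markers (6 genes) summed to 164 to 323 CPM in joint nonmigrated and 1405 to 1952 CPM in joint migrated libraries, all 6 higher, and to 301 to 843 and 1604 to 1703 CPM in skin, 2 of 6 higher. B cell markers (5 genes) summed to 99.8 to 227 and 719 to 945 CPM in joint nonmigrated and migrated libraries, to 10.5 to 24.9 and 142 to 228 CPM in those of the skin, and to 3926 to 4396 CPM in joint and 2477 to 3502 CPM in skin steady-state libraries. Migratory dendritic cell markers (4 genes) summed to 102 to 155 CPM in joint nonmigrated and 2683 to 7064 CPM in joint migrated libraries, all 4 higher. In the skin they summed to 389 to 1709 and 5361 to 7630 CPM, 2 of 4 higher. The part of these cells in the results below was not tested.

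**Figure D1:**
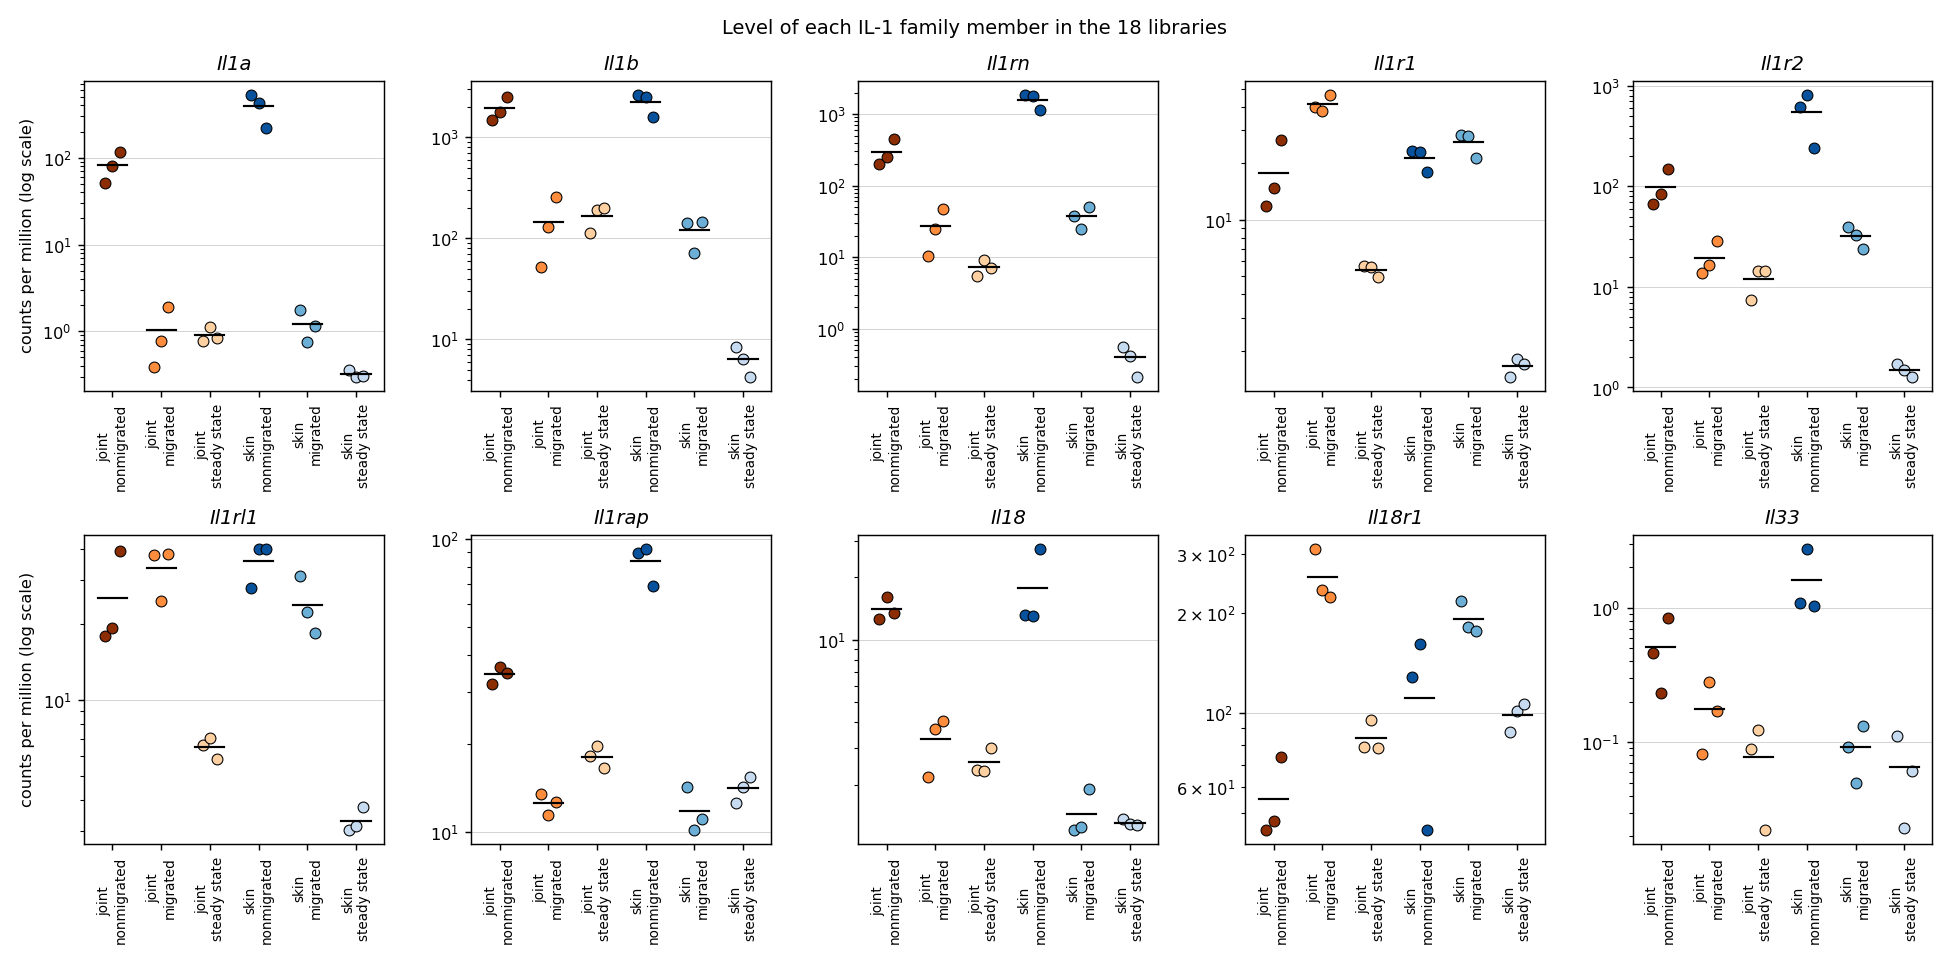
Level of the 10 genes in each library, in CPM on a log axis that differs between panels, for the 6 groups of 3 libraries (points, replicates 1 to 3 from left to right) with the group mean as a bar. Il1a, Il1b, Il1rn, Il1r2 and Il1rap are highest in the 2 nonmigrated groups, whereas Il18r1 is highest in the 2 migrated groups and Il33 does not exceed 2.75 CPM.

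Il1b was the most abundant member per kilobase of exon in all groups but skin steady state, and it was far lower in leukocytes that had left the tissue. It was at 1496, 1796 and 2515 CPM in joint nonmigrated libraries and at 52.5, 130.5 and 254 CPM in joint migrated libraries. In the skin it was at 2619, 2529 and 1587 CPM in nonmigrated and at 141, 72.3 and 146 CPM in migrated libraries. Every nonmigrated library lay above every migrated one. The joint steady-state libraries held 112, 191 and 200.2 CPM, within the range of the joint migrated libraries, and the skin steady-state libraries only 8.48, 6.39 and 4.28 CPM. Per kilobase, Il1b ranked 35th of all genes in joint nonmigrated cells and 32nd in skin nonmigrated cells, at 1015 and 1177 CPM per kb.

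Il1a, the membrane-held and alarmin form of IL-1, lay near 1 CPM in migrated cells. It was at 51.7, 80.6 and 118 CPM in joint nonmigrated libraries and at 0.39, 0.771 and 1.91 CPM in joint migrated libraries. In the skin it was at 527, 426 and 221 CPM in nonmigrated and at 1.77, 0.749 and 1.15 CPM in migrated libraries. The skin nonmigrated libraries were all above the joint nonmigrated libraries, and the migrated libraries of the sites overlapped. At steady state Il1a was at 0.778, 1.13 and 0.843 CPM in joint and at 0.359, 0.301 and 0.305 CPM in skin libraries.

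Il1rn, the antagonist, was at 200.1, 249 and 447 CPM in joint nonmigrated libraries and at 10.3, 24.7 and 46.4 CPM in joint migrated libraries. In skin it was at 1840.0, 1767 and 1137 CPM in nonmigrated and at 37.9, 24.7 and 50.8 CPM in migrated libraries. Skin nonmigrated libraries thus held the highest antagonist levels without overlap with the joint. At steady state it was at 5.38, 9.05 and 7.12 CPM in joint and at 0.561, 0.417 and 0.214 CPM in skin libraries.

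Il18 and Il33 were scarce ligands in these sorted cells. Il18 was at 12.6, 16.1 and 13.4 CPM in joint nonmigrated and at 2.2, 3.71 and 4.05 CPM in joint migrated libraries. It was at 13.1, 13.0 and 27.4 CPM in skin nonmigrated and at 1.21, 1.25 and 1.91 CPM in skin migrated libraries. The third skin nonmigrated library was the highest of all. At steady state Il18 was at 2.36, 2.33 and 3.02 CPM in joint and at 1.37, 1.3 and 1.28 CPM in skin libraries. Il33, an alarmin of barrier and stromal cells, had 17, 7 and 28 counts in joint nonmigrated libraries and 18, 47 and 20 counts in skin nonmigrated libraries. The skin migrated libraries held 2, 1 and 3 counts of Il33, at or under the limit of 3 counts, and the joint migrated libraries 4, 12 and 8. Fibroblast markers (5 genes) summed to 126 to 353 CPM in joint nonmigrated and 57.5 to 245 CPM in skin nonmigrated libraries and to 2.15 CPM or less elsewhere, and keratinocyte markers (5 genes) to 26.7 to 310 CPM in skin nonmigrated libraries alone and to 2.28 CPM or less elsewhere. Their part in the Il33 counts was not tested.

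Among the receptors, the decoy Il1r2 followed the ligands and the signalling receptor Il1r1 did not. Il1r2 was at 66.3, 84.5 and 147 CPM in joint nonmigrated and at 13.7, 16.5 and 28.4 CPM in joint migrated libraries. It was at 620.0, 809 and 239 CPM in skin nonmigrated and at 39.4, 32.5 and 23.9 CPM in skin migrated libraries, so that the nonmigrated libraries of both sites were above all migrated ones. At joint steady state Il1r2 was at 7.43, 14.5 and 14.4 CPM, overlapping the joint migrated range. Il1r1 was at 11.8, 14.7 and 26.6 CPM in joint nonmigrated but at 39.7, 37.8 and 46.1 CPM in joint migrated libraries. In skin it was at 23.2, 22.9 and 17.9 CPM in nonmigrated and at 28.2, 27.9 and 21.2 CPM in migrated libraries, which overlapped.

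The accessory chain Il1rap, which IL-1 and IL-33 receptors share, also followed the ligands. It was at 32.0, 36.6 and 34.8 CPM in joint nonmigrated and at 13.5, 11.4 and 12.7 CPM in joint migrated libraries. It was at 89.7, 92.4 and 69.0 CPM in skin nonmigrated and at 14.2, 10.1 and 11.1 CPM in skin migrated libraries. The migrated libraries of the 2 sites overlapped while the nonmigrated ones did not. Joint steady-state libraries, at 18.1, 19.6 and 16.5 CPM, lay between the joint migrated and nonmigrated ones.

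Il1rl1, which encodes the IL-33 receptor ST2, was at 17.9, 19.4 and 39.2 CPM in joint nonmigrated and at 37.8, 24.7 and 38.0 CPM in joint migrated libraries. In skin it was at 27.9, 39.7 and 40.0 CPM in nonmigrated and at 31.0, 22.3 and 18.5 CPM in migrated libraries. The groups overlapped at each site. The third joint nonmigrated library was the highest of its group for 8 of the 10 members.

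Il18r1, the ligand-binding chain of the IL-18 receptor, ran opposite to the ligands. It was at 44.4, 47.4 and 73.9 CPM in joint nonmigrated and at 312, 235 and 223 CPM in joint migrated libraries. In skin it was at 128, 161 and 44.5 CPM in nonmigrated and at 217, 181 and 176 CPM in migrated libraries, with no overlap at either site although the third skin nonmigrated library stood well under its group. Il18r1 was the second most abundant member per kilobase in migrated cells of both sites (53.2 CPM per kb in joint and 39.8 in skin) after Il1b.

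The comparison of migrated with nonmigrated cells asked which transcripts mark leukocytes that leave an inflamed site. A gene was called when edgeR's quasi-likelihood test gave a Benjamini-Hochberg adjusted p under 0.001 over all 16777 genes tested and the log2 fold change exceeded 1 in size. Il33 passed the filter on low counts only through its nonmigrated libraries and is left out of the counts and medians of this comparison. In the joint, 5 of the other 9 members fell and 1 rose in migrated cells, where 12.6% of all genes were called lower and 8.8% higher. The median log2 fold change was -2.08 over the 9 members and 0.02 over all genes. Il1a fell by 6.34 on the log2 scale (SE 0.58, adjusted p = 4.81e-06, lower in 3 of 3 migrated libraries), Il1b by 3.73 (SE 0.52, adjusted p = 9.77e-05) and Il1rn by 3.46 (SE 0.52, adjusted p = 0.000169). Il1rap fell by 1.46 (SE 0.15, adjusted p = 1.35e-05) and Il18 by 2.08 (SE 0.33, adjusted p = 0.000249), whereas Il18r1 rose by 2.22 (SE 0.38, adjusted p = 0.000451). Beside Il18r1, all 6 T cell, 3 of 4 regulatory T cell, 2 of 4 NK cell and 4 of 5 B cell markers were called higher in these migrated cells. So were all 4 migratory dendritic cell and 2 of 5 dendritic cell markers, with 1 of the 5 lower. The part of these cells was not tested. Il1r2 missed the threshold narrowly at -2.35 (SE 0.45, adjusted p = 0.00101), as did Il1r1 at 1.22 (SE 0.26, adjusted p = 0.00184), and both were called with DESeq2. Il1rl1 was at 0.40 (adjusted p = 0.296), and Il33 had 17, 7 and 28 against 4, 12 and 8 counts. Without joint migrated replicate 2 the Il1rn call was lost (adjusted p = 0.00155), the Il18 call was lost without joint migrated replicate 1 or 2 or joint nonmigrated replicate 2, and the Il18r1 call was lost on leaving out any library of the 6 except joint nonmigrated replicate 3, with adjusted p up to 0.00355. Without joint nonmigrated replicate 3, Il1r1 was called at 1.64 (adjusted p = 6.62e-05).

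In the skin, 6 of the 9 members other than Il33 fell in migrated cells and none rose, where 12.4% of all genes were called lower and 8.49% higher. The median log2 fold change was -3.61 over the 9 members against 0.01 over all genes. Il1a fell by 8.32 on the log2 scale (SE 0.64, adjusted p = 1.4e-06), Il1rn by 5.39 (SE 0.57, adjusted p = 1.3e-05), Il1b by 4.23 (SE 0.53, adjusted p = 4.62e-05) and Il1r2 by 4.13 (SE 0.49, adjusted p = 3.12e-05). Il18 fell by 3.61 (SE 0.37, adjusted p = 9.92e-06) and Il1rap by 2.83 (SE 0.16, adjusted p = 1.78e-07). For Il33, whose migrated libraries were at the floor, the nonmigrated mean was at least 11.5-fold higher than the mean level that 3 counts per library give, which is a description and not a test, since only the higher group brought the gene past the filter. Il1r1 stood at 0.27 (SE 0.26, adjusted p = 0.397), Il1rl1 at -0.59 (SE 0.31, adjusted p = 0.127) and Il18r1 at 0.78 (SE 0.37, adjusted p = 0.0911), which became 0.40 without skin nonmigrated replicate 3.

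**Figure D2:**
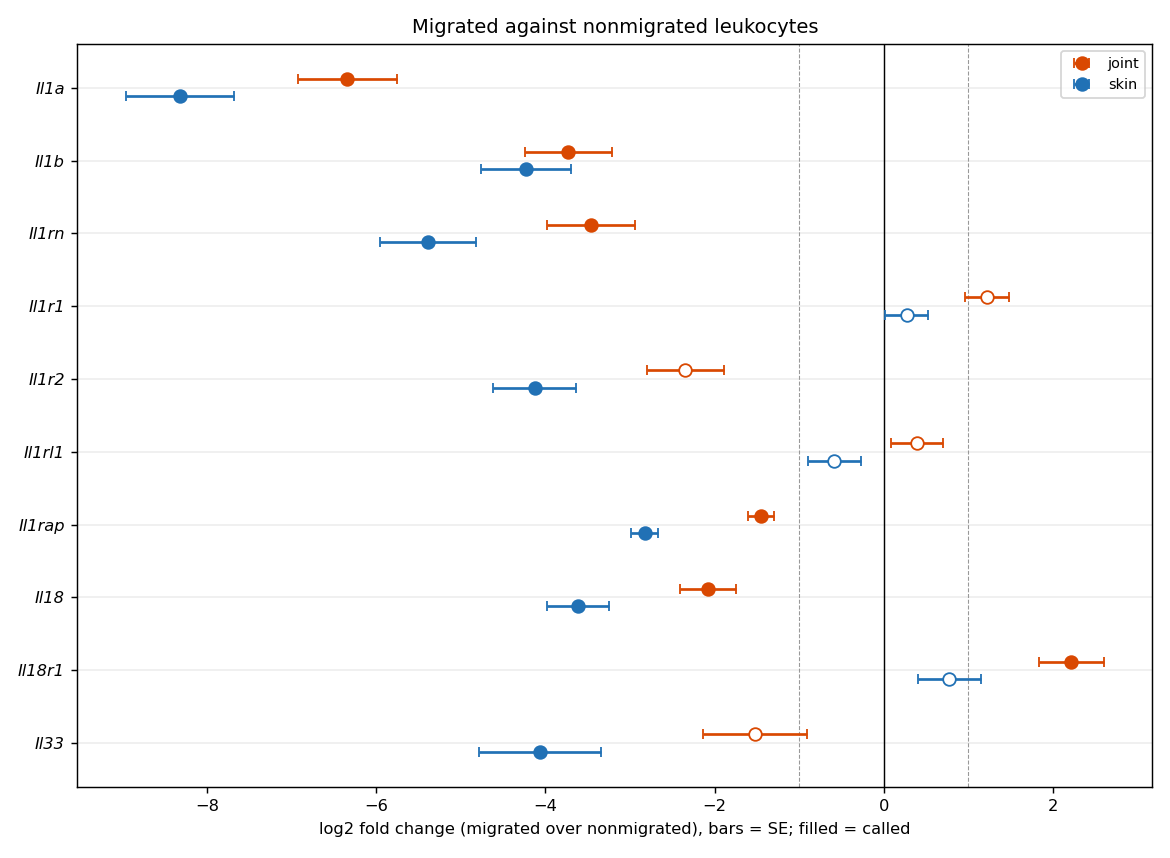
Log2 fold change of each member in migrated over nonmigrated leukocytes for joint and skin (3 against 3 libraries, bars are standard errors, filled points are called, dashed lines mark a log2 fold change of 1 in size). The ligands, Il1rn and Il1rap lie left of 0 at both sites, Il1a farthest at -6.34 and -8.32, Il18r1 in the joint is the only called point on the right, and Il33 is drawn but not counted, since it passed the filter only through its nonmigrated libraries.

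No member passed the threshold for a difference between the sites in this change, where 0.119% of all genes did. The nearest was Il1rap, whose fall was smaller in the joint by 1.37 on the log2 scale (SE 0.22, adjusted p = 0.00462). The difference was 1.97 for Il1a (adjusted p = 0.128), 1.93 for Il1rn (adjusted p = 0.0999), 1.78 for Il1r2 (adjusted p = 0.0987) and 1.53 for Il18 (adjusted p = 0.0686). Il1b differed least, by 0.50 (adjusted p = 0.662). The value was above 0 (joint above skin) for all 9 members other than Il33, with a median of 1.44 against -0.01 over all genes. The 2 changes share no library. The 9 members, however, were read in the same libraries and are not independent, so their shared sign is a description and not a test. Without joint migrated replicate 3 the value for Il1b turned to -0.13. For joint over skin in nonmigrated cells, 0 of the 9 members lay above 0, with a median of -1.02. In migrated cells 6 of the 9 did, with a median of 0.29.

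Comparing the cells that stayed, Il1rap was 1.28 lower on the log2 scale in joint than in skin nonmigrated cells (SE 0.15, adjusted p = 0.000262) and was the only member of 10 called, where 1.9% of all genes were called lower and 1.14% higher. The call did not hold when only these 2 groups were fitted (adjusted p = 0.00396) or on leaving out any library other than skin nonmigrated replicate 3. Without that library, 4 members were called lower in the joint, namely Il1a at -2.52, Il1r2 at -2.85, Il1rap at -1.40 and Il18r1 at -1.39. In the full fit Il1r2 was at -2.49 (SE 0.45, adjusted p = 0.00266), Il1rn at -2.41 (SE 0.49, adjusted p = 0.0048) and Il1a at -2.24 (SE 0.46, adjusted p = 0.00494). Il1b was at -0.22 (SE 0.46, adjusted p = 0.755) and was the member closest to 0 there. Keratinocyte markers summed to 0.299 to 1.81 CPM in joint and 26.7 to 310 CPM in skin nonmigrated libraries. Of these 5 genes, 3 were at or under 3 counts in every joint nonmigrated library, so this difference is a description and not a test. Called lower in the joint were 2 of 4 migratory dendritic cell and 2 of 4 endothelial cell markers. Called higher in the joint were 4 of 5 B cell, 2 of 7 neutrophil and 1 of 4 eosinophil markers. The part of these cells was not tested. Among migrated cells no member was called between joint and skin, and edgeR called 0 of 16777 genes (0%), although 2770 genes had an unadjusted p under 0.05 and 1.14% were called at an adjusted p under 0.05. Il18 was at 1.19 there (SE 0.35, adjusted p = 0.117), Il1r2 at -0.71 (SE 0.44, adjusted p = 0.456) and Il1r1 at 0.68 (SE 0.26, adjusted p = 0.21).

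Ratios of read counts inside a library, chosen after the levels were seen, showed that the members did not change in proportion. Il1rn reads per Il1b read were 0.134, 0.139 and 0.178 in joint nonmigrated libraries and 0.703, 0.699 and 0.717 in skin nonmigrated libraries, a 4.74-fold difference. The ratio was 0.196, 0.190 and 0.183 in joint migrated and 0.269, 0.341 and 0.348 in skin migrated libraries, so it lay above the nonmigrated ratio in the joint and under it in the skin. At steady state it was lowest, at 0.048, 0.0474 and 0.0356 in joint and 0.0661, 0.0652 and 0.05 in skin libraries.

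Il1a reads per Il1b read were 0.0346, 0.0449 and 0.0467 in joint nonmigrated but 0.00743, 0.00591 and 0.0075 in joint migrated libraries, a 6.04-fold difference. They were 0.201, 0.169 and 0.14 in skin nonmigrated and 0.0125, 0.0104 and 0.00789 in skin migrated libraries, a 16.6-fold difference. Decoy over signalling receptor, Il1r2 reads per Il1r1 read, were 5.63, 5.74 and 5.55 in joint nonmigrated and 0.345, 0.437 and 0.614 in joint migrated libraries, a 12.5-fold difference. They were 26.7, 35.3 and 13.3 in skin nonmigrated and 1.39, 1.16 and 1.13 in skin migrated libraries, a 19.0-fold difference. Reads of the decoy thus outnumbered those of the signalling receptor in every library of cells that stayed, and in joint migrated cells the reverse held for reads. Reads are not adjusted for length, and the merged exons span 1908 bases in Il1r2 and 6363 in Il1r1. Per kilobase, the decoy stayed the higher of the pair in joint migrated cells, at 10.2 against 6.47 CPM per kb. For each of these contrasts of read ratios the groups did not overlap and the exact two-sided permutation test gave p = 0.1, the smallest that 3 against 3 libraries allow (Benjamini-Hochberg adjusted p = 0.124 over 42 tests), so none can pass 0.05.

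**Figure D3:**
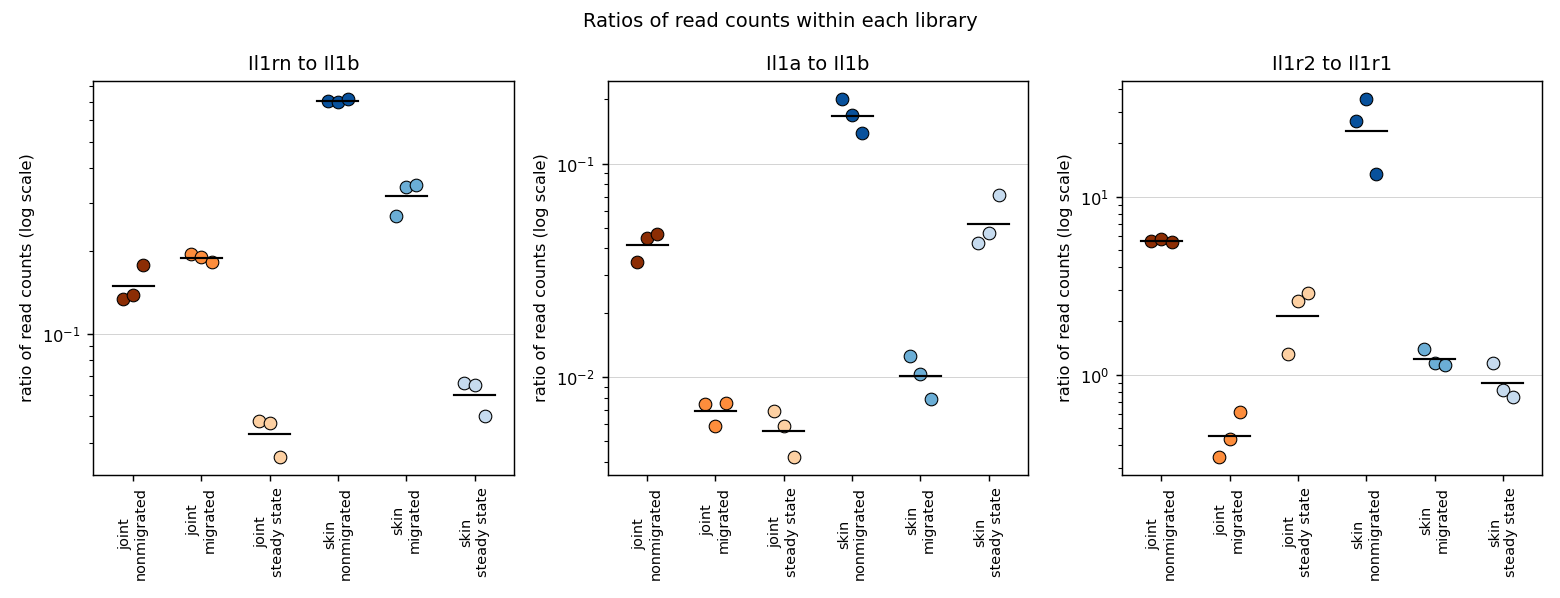
Ratio of read counts of Il1rn to Il1b, Il1a to Il1b and Il1r2 to Il1r1 in each of the 18 libraries (points, log axes that differ between panels) with the geometric mean of each group of 3 as a bar. Skin nonmigrated libraries are highest in all 3 panels, with Il1rn to Il1b between 0.699 and 0.717, and joint migrated libraries are lowest for Il1r2 to Il1r1.

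The steady-state libraries give the level in lymph node leukocytes of each site without inflammation, with the doubts on their sort and treatment given above. In the joint, 3 of the 9 members tested rose in migrated cells over steady state and none fell, where 12.4% of all genes were called higher and 3.5% lower, and all 3 were receptors. Il1r1, at 5.67, 5.59 and 4.97 CPM at steady state, rose by 2.96 on the log2 scale (SE 0.14, adjusted p = 4.78e-09). Il1rl1, at 6.63, 7.04 and 5.81 CPM at steady state, rose by 2.40 (SE 0.21, adjusted p = 6.7e-07), and Il18r1, at 79.2, 95.1 and 78.8 CPM, rose by 1.64 (SE 0.14, adjusted p = 7.49e-07). The ligands did not pass the threshold: Il1b was at -0.17 (SE 0.44, adjusted p = 0.766), Il1a at 0.19 (adjusted p = 0.762) and Il18 at 0.40. Il1rn was at 1.95 (SE 0.43, adjusted p = 0.00193), and Il1rap at -0.49 (SE 0.14, adjusted p = 0.0103). The 4 regulatory T cell markers were all called higher in these migrated cells (742 to 926 against 221 to 238 CPM summed), as were all 4 NK cell and all 5 dendritic cell markers, whereas all 5 B cell markers (719 to 945 against 3926 to 4396 CPM) and 6 of 7 neutrophil markers were lower (34.5 to 89.8 against 418 to 820 CPM). Also called higher were 3 of 6 mast cell and basophil markers (25.5 to 181 against 6.23 to 6.75 CPM). So were 3 of 4 migratory dendritic cell (2683 to 7064 against 461 to 772 CPM) and 2 of 4 eosinophil markers. The part of these cells in the receptor levels was not tested.

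In the skin, 5 of the 9 members rose over steady state and none fell, where 16.6% of all genes were called higher and 8.51% lower. Il1rn rose by 6.55 on the log2 scale (SE 0.58, adjusted p = 4.81e-07) and Il1b by 4.25 (SE 0.51, adjusted p = 8.72e-06). Il1r2, at 1.7, 1.48 and 1.28 CPM at steady state, rose by 4.44 (SE 0.34, adjusted p = 1.35e-07). Il1r1, at 1.46, 1.81 and 1.71 CPM at steady state, rose by 3.99 (SE 0.15, adjusted p = 7.06e-10), and Il1rl1, at 3.03, 3.15 and 3.76 CPM, by 2.89 (SE 0.22, adjusted p = 1.03e-07). Il18r1, at 87.7, 101 and 107 CPM at steady state, was at 0.99 (SE 0.14, adjusted p = 3.92e-05), just under the fold limit, and Il1a at 1.95 (SE 0.53, adjusted p = 0.00584). Il1rap was at 12.6, 14.2 and 15.5 CPM at steady state and did not pass the threshold (-0.22, adjusted p = 0.191). Il33, with 5, 1 and 2 counts in skin and 4, 5 and 1 counts in joint steady-state libraries, did not pass the filter in the lymph node libraries. Among markers in skin, 6 of 7 of monocytes and macrophages (261 to 485 against 45.7 to 72.8 CPM summed), all 4 of regulatory T cells (646 to 935 against 213 to 236 CPM), all 4 of NK cells and 3 of 5 of dendritic cells were called higher in migrated cells than at steady state. So were 3 of 4 of migratory dendritic cells (5361 to 7630 against 466 to 577 CPM) and 2 of 4 of eosinophils. Of 6 mast cell and basophil markers (19.3 to 23.5 against 4.31 to 4.93 CPM), 2 were called higher. Of these 6, 2 were at or under 3 counts in every skin steady-state library. All 5 B cell markers were lower (142 to 228 against 2477 to 3502 CPM), and the part of these cells was not tested.

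Between the steady-state groups, 4 of the 9 members were higher in the joint and none lower, where only 1.4% of all genes were called higher and 0.0409% lower. Il1b was higher by 4.70 on the log2 scale (SE 0.52, adjusted p = 8.88e-05), Il1rn by 4.11 (SE 0.57, adjusted p = 0.000487), Il1r2 by 3.00 (SE 0.33, adjusted p = 8.88e-05) and Il1r1 by 1.70 (SE 0.15, adjusted p = 1.56e-05). Il1rl1 was at 0.97 (SE 0.21, adjusted p = 0.013) and Il18r1 at -0.23 (adjusted p = 0.367). The Il1rn call was lost on leaving out any of the 6 libraries (adjusted p up to 0.00548), and those of Il1b and Il1r2 on leaving out any skin library (0.00104 to 0.00159). Neutrophil markers summed to 418 to 820 CPM in joint and 11.1 to 17.9 CPM in skin steady-state libraries, all 7 higher in the joint, and those of monocytes and macrophages to 392 to 546 against 45.7 to 72.8 CPM, 5 of 7 higher. Their part in these differences was not tested, and site and the PBS or naive naming of the mice cannot be told apart.

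The change from steady state was then compared between the sites. The difference, joint minus skin, was called for 1 of the 9 members, Il1r2 (-3.72, SE 0.44, adjusted p = 0.000247), where 0.696% of all genes were called lower and 0.193% higher. Il1b at -4.43 (SE 0.66, adjusted p = 0.00125), Il1rn at -4.60 (SE 0.71, adjusted p = 0.00158) and Il1r1 at -1.03 (SE 0.20, adjusted p = 0.00614) did not pass the threshold of 0.001. Il18r1 was at 0.65 (SE 0.20, adjusted p = 0.0541). The Il1r2 call was lost when all 18 libraries were fitted together (adjusted p = 0.00159) and on leaving out any of 6 libraries. Without joint migrated replicate 1 or 3, Il1b and Il1rn were called too. Il1r2, Il1b, Il1rn and Il1r1 were also the members called higher in joint than in skin steady-state cells, and none was called between the migrated groups. The steady-state difference is a part of this contrast and comes from the same libraries. The shared members are therefore a description and not a separate result. Mean Il1b was 168 CPM in joint and 6.38 CPM in skin steady-state libraries, and 146 and 120 CPM in the migrated ones. Site, the PBS or naive naming and the traits of the inflamed skin libraries given above cannot be told apart in this difference either.

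**Figure D4:**
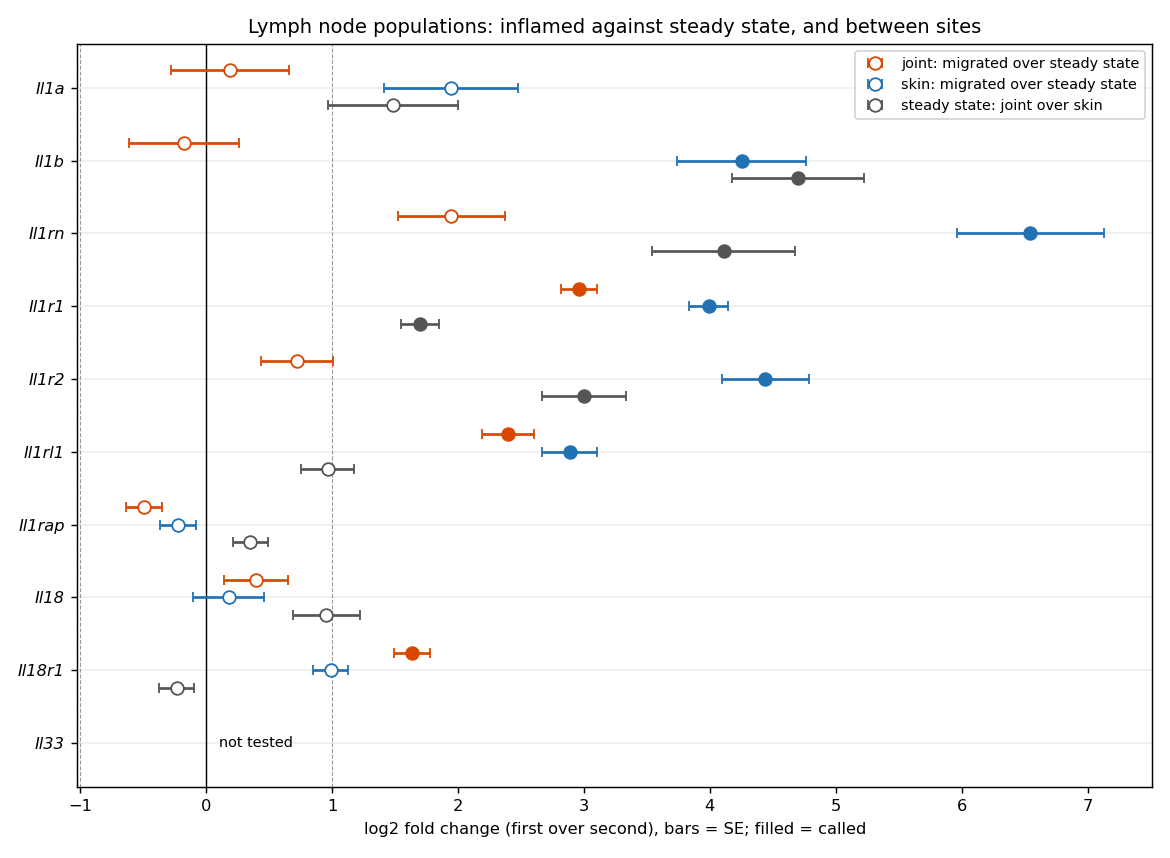
Log2 fold change of each member between lymph node populations (3 against 3 libraries, bars are standard errors, filled points are called, dashed lines mark a log2 fold change of 1 in size). Il1r1 and Il1rl1 are called in migrated cells over steady state at both sites, Il1b only in skin (4.25 against -0.17 in the joint), and the grey points give joint over skin at steady state.

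The genes around the members were described from 5 lists, with counts called under the same rule. Among ligand processing genes, which mature IL-1β and IL-18 through inflammasomes, 5 of 9 fell in migrated cells of the joint and 5 of 9 in those of the skin, beside 12.6% and 12.4% of all genes called lower. The inflammasome sensor Nlrp3 fell by 5.06 on the log2 scale in the joint (SE 0.73, adjusted p = 0.00013) and by 5.41 in skin (SE 0.75, adjusted p = 9.8e-05), the sensor Nlrp1b was at -3.67 and -3.13, and the inflammatory caspase Casp4 at -1.72 and -1.97, all called. The list's median was -1.17 in the joint and -1.18 in skin. Over steady state, Capn2, a calpain that can cleave pro-IL-1α, rose by 1.43 in joint and 1.85 in skin migrated cells.

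Of 15 signalling components, 1 fell in migrated cells of the joint and 4 in those of the skin, and none rose, beside 12.6% and 12.4% of all genes called lower. Irak3, which encodes an inhibitory IRAK family member, fell by 2.45 on the log2 scale in the joint (SE 0.22, adjusted p = 4.1e-06) and had a log2 fold change of -3.78 in skin (SE 0.23, adjusted p = 2.72e-07). Irak2 fell by 3.48 in the skin and was 2.19 lower in joint than in skin nonmigrated cells (SE 0.26, adjusted p = 0.000265). The list's median was only -0.24 in the joint and -0.47 in the skin. Peli2, a ubiquitin ligase of the pathway, was at 23.0 ± 13.4 CPM (SD, n = 3) in joint migrated and 1.09 ± 0.224 CPM in joint steady-state cells and rose by 4.43 on the log2 scale (SE 0.45, adjusted p = 2.99e-06).

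Of 12 genes that IL-1 is known to induce, 11 were tested between migrated and nonmigrated cells, of which 2 fell in the joint and 4 in the skin, beside 12.6% and 12.4% of all genes called lower. The neutrophil chemoattractants Cxcl3 and Cxcl2 fell in both, with log2 fold changes of -6.15 and -5.99 in the joint and -9.72 and -7.24 in the skin, and Il6 fell by 5.48 in the skin (SE 0.79, adjusted p = 0.000124). Over steady state, 3 of 10 tested rose in the joint and 8 of 10 in the skin, beside 12.4% and 16.6% of all genes called higher. The 8 include Il6, which was at 0.0331 ± 0.0121 CPM (SD, n = 3) in skin steady-state libraries. That lies under the 0.0673 to 0.0916 CPM that 3 counts give in them. Those libraries could not bring Il6 past the filter, so its rise is a description and not a test. Csf2, which encodes GM-CSF, rose by 2.81 in joint (SE 0.45, adjusted p = 0.000171) and 5.48 in skin (SE 0.53, adjusted p = 1.11e-06). It was at 0.182 ± 0.0655 CPM in skin steady-state libraries, so the size of the skin value rests on few counts. The NF-κB inhibitor Nfkbia rose in both, by 2.29 in the skin. Cxcl2 was 4.85 higher in joint than in skin steady-state cells (SE 0.61, adjusted p = 0.000241), the only one of the 10 called there.

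Among the other ligands and binding proteins of the family, only Il36g and Il18bp of 6 genes were tested. Il36g, an IL-36 agonist, was at 37.4 ± 24.6 CPM (SD, n = 3) in joint nonmigrated and 0.491 ± 0.582 CPM in joint migrated cells. In the skin it was at 145 ± 78.3 CPM in nonmigrated and 0.477 ± 0.344 CPM in migrated cells. Its log2 fold changes were -6.23 in the joint and -8.26 in the skin. The nonmigrated libraries brought it past the filter and the migrated levels lay near the floor, so these values are a description and not a test. Il18bp, which encodes the soluble IL-18 antagonist, rose over steady state by 1.51 in the joint (SE 0.18, adjusted p = 1.66e-05) and by 2.34 in the skin (SE 0.19, adjusted p = 2.17e-07). Among the other receptors, 3 of 5 were tested. Sigirr, which encodes an inhibitory receptor of the family, rose in migrated cells by 2.35 in the joint and 1.76 in the skin, whereas the IL-36 receptor Il1rl2 fell (-2.49 and -2.74). Il18rap, the partner chain of Il18r1, rose over steady state by 1.80 in the joint and 1.56 in the skin. Reads of Il18r1 per Il18rap read ran from 0.397 to 0.42 in joint nonmigrated and 0.441 to 0.53 in skin nonmigrated libraries against 1.56 to 1.96 in joint migrated and 1.66 to 2.18 in skin migrated libraries, a 4.31-fold and a 3.76-fold difference (exact two-sided permutation p = 0.1 for each, the smallest possible).

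**Figure D5:**
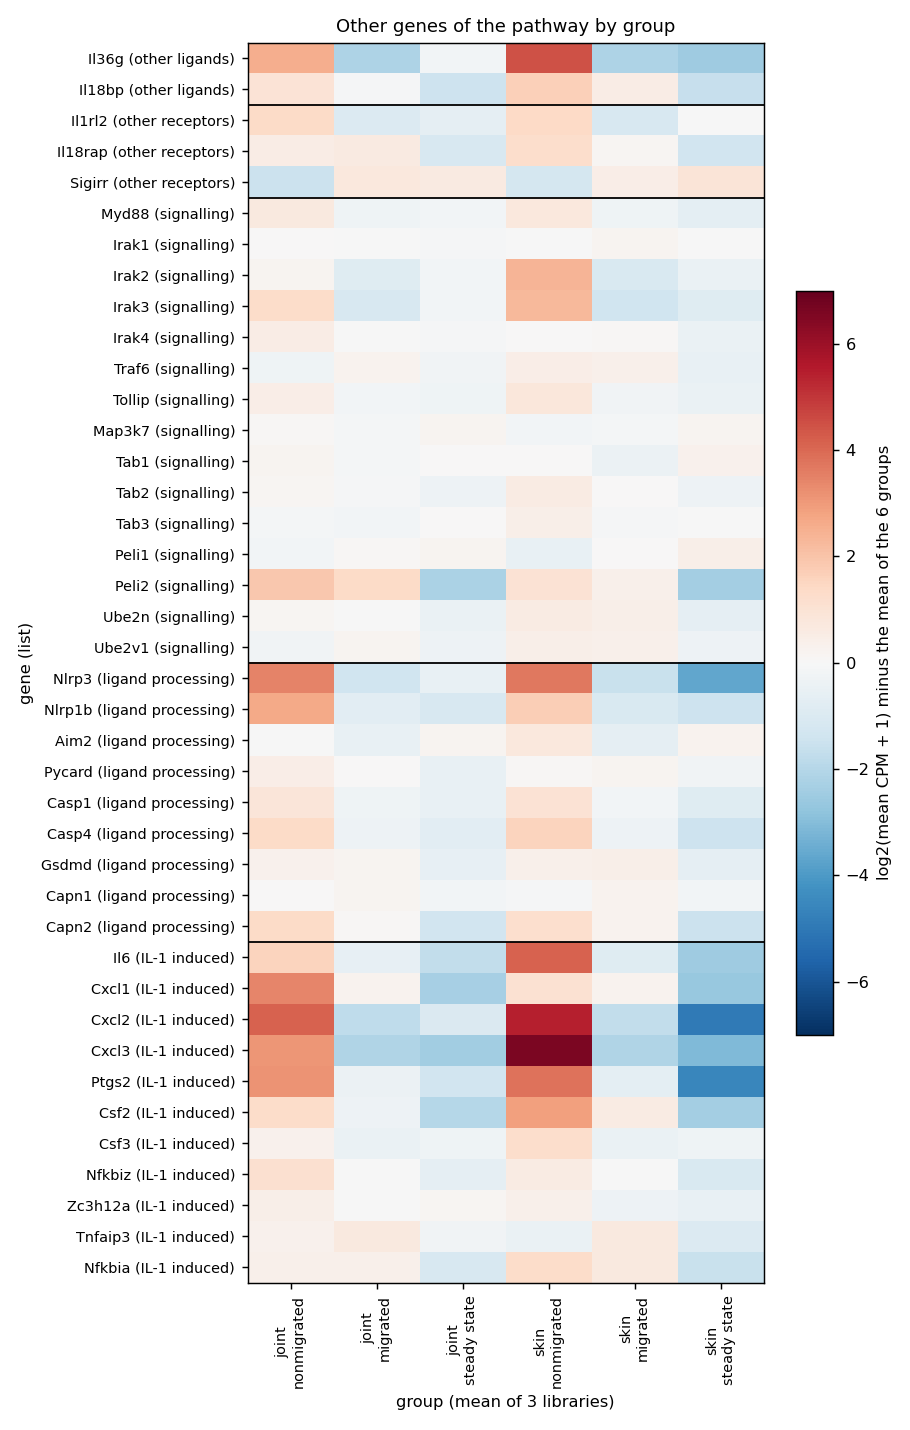
Group means of 40 of the 47 listed pathway genes, those with a mean of at least 1 CPM in some group, as log2(mean CPM + 1) minus the mean over the 6 groups (colour, limits of 7). Nlrp3, Cxcl2 and Cxcl3 are highest in the nonmigrated groups, and the signalling rows are pale apart from Irak2, Irak3 and Peli2.

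Genes whose levels ran most alike with a member over the 18 libraries (Pearson r on log2(CPM + 1), a description since the libraries share groups) differed by member. Il1rn and Il1r2 were among the closest pairs of members (r = 0.984), and Il1rn was the gene nearest to Il1r2 among 10703 genes searched. The genes nearest to Il1b were Gda (r = 0.982), Ptgs2 (r = 0.982), which encodes the prostaglandin synthase COX-2, and Mefv (r = 0.978). Those nearest to Il1a were Lhfpl2 (r = 0.993), Sod2 (r = 0.992) and Ninj1 (r = 0.991). Il18r1 was nearest to Il2rb (r = 0.963), a chain of the IL-2 receptor, Ccr8 (r = 0.963) and Sytl2 (r = 0.959), and Il1r1 was nearest to Mmp25 (r = 0.963). In the 12 inflamed libraries alone, the 3 nearest genes were all others for 6 of the 10 members, and Il33 alone had the same 3.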

How the data were processed

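Leukocyte RNA from 18 pooled samples (6 groups of 3) was sequenced as paired reads of 100 bp. The authors trimmed the reads with Trim Galore, aligned them to mm10 with TopHat2 and counted reads per gene with HTSeq under default settings. The versions are not given in the sources used here. The deposited values are these raw counts per Ensembl gene. Reads that matched more than 1 place (9.24 to 12.7% of the table's total) or more than 1 gene (1.84 to 2.37%) stayed out, as did reads in no gene (0.0925 to 0.562%). Symbols came from GENCODE M21, which matched 49326 of the 49585 genes.

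Counts were scaled by TMM and tested with edgeR 4.0.16 (R 4.3.3) by the quasi-likelihood F test, two-sided, with genes filtered by expression (minimum count 10). The inflamed comparisons were fitted on the 12 inflamed libraries (16777 genes) and the steady-state comparisons on the 12 lymph node libraries (17107 genes), with group as the only term. Calls needed both a log2 fold change beyond 1 in size and an adjusted p (Benjamini-Hochberg, all genes) less than 0.001. CPM is counts per 1000000 TMM-scaled counts in genes, on 1 scale for the 18 libraries, and levels per kilobase use the merged exon length. Intervals for counting error were not added, because replicate spread exceeded counting noise (chi-square per degree of freedom 15.3 to 119 within groups). The fits were tested on simulated data.

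Alternatives were DESeq2 1.42.0, DESeq2 size factors, no filter, a filter of 10 counts in every library of a group, all 18 libraries, only the groups compared, an adjusted p under 0.05, a replicate block and leaving out each library. The members, lists and tests were chosen with earlier results of these data known. All members are named. In a comparison, at most 3 called genes of a list are named, by lowest adjusted p, and the nearest genes are the 3 with the highest r among genes with a mean of at least 5 CPM. Ratios were tested by exact permutation on the log2 scale.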

Additional observations from a re-analysis of the deposited data

Results flagged for a closer look

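The change from nonmigrated to migrated cells differed between joint and skin for Il1rap, by 1.37 on the log2 scale (joint above skin), at an adjusted p of 0.00462, which passes 0.05 but not the 0.001 used for calls. The change from steady state to migrated cells differed between joint and skin for 4 members, always smaller in the joint, by -4.60 for Il1rn, -4.43 for Il1b, -3.72 for Il1r2 and -1.03 for Il1r1. These were picked out because the difference itself passed an adjusted p of 0.05 in edgeR, and only that of Il1r2 passed 0.001. Il1rn, Il1b, Il1r2 and Il1r1 were also the members called higher in joint than in skin steady-state cells, and none was called between the migrated groups. Both contrasts use the same steady-state libraries, so the shared members are not a separate result. Site, the PBS or naive naming of the steady-state mice and the traits of the inflamed skin libraries cannot be told apart. With 3 libraries a group, no search for a library far from its group was made.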

How the results depend on the processing

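Of the 9 counts of members called, here with Il33 where it was tested, 6 stayed within 1.5 times under every alternative that kept all libraries of the groups compared. For the site difference in the migrated against nonmigrated change, 0 members became 1 with DESeq2, at an adjusted p under 0.05, with all 18 libraries and with no filter, and 3 with the replicate block at 0.05. For joint against skin nonmigrated cells, 1 became 4 with DESeq2, all 18 libraries, no filter or the block at 0.05, 5 at an adjusted p under 0.05 and 0 with only the groups compared. For the site difference in the change from steady state, 1 became 4 with DESeq2, at 0.05 or with the block at 0.05, and 3 with no filter or with the block. Leaving out 1 library gave 3 to 7 members called in joint and 6 to 7 in skin migrated against nonmigrated cells, 0 to 1 for their difference, 0 to 4 between nonmigrated groups, 0 to 0 between migrated groups, 3 to 4 in joint and 5 to 6 in skin over steady state, 1 to 3 between steady-state groups and 0 to 3 for the last difference. The causes were not tested. Signs turned only in values that were not called. On leaving out 1 library, Il1b ranged from -0.13 to 0.93 for the site difference in the migrated against nonmigrated change, Il18 from -0.53 to 0.11 between nonmigrated groups, Il1a from -1.06 to 0.15 and Il1b from -0.36 to 0.70 between migrated groups, Il1a from -0.62 to 0.55 and Il1b from -0.84 to 0.20 in joint over steady state, and Il18 from -0.11 to 0.26 in skin over steady state.

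The replicate numbers share only a number in the labels. Same-numbered libraries correlated at -0.353 to 0.254 in their deviations from the group means, 6 of 21 pairs above 0.1, and each library correlated best with its own number in migrated against nonmigrated cells of both sites. With the replicate block, 7 members rather than 6 were called in joint and 6 rather than 7 in skin migrated against nonmigrated cells, Il1a in joint over steady state became -0.046, and no separate fit of only 2 groups was made for the differences. Depth limits Il33, which had 47 counts at most in any library.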
